A study of Mus musculus with 12 samples.

Results

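Imprinted genes that are transcribed from the paternal allele were followed through mouse embryonic stem cells (ESCs) that carry wild-type or truncated PRAMEL7. The set holds 10 genes, chosen by symbol from the 50978 rows of the deposited expression table: *Peg10*, *Sgce*, *Mest*, *Nnat*, *Plagl1*, *Impact*, *Zdbf2*, *Zrsr1*, *Slc38a4* and *Peg3*. The genes had been picked with earlier results of the same libraries known, so their values are a description and carry no p-value. All 10 entered the test, as part of the 12914 genes that exceeded 1 CPM in 2 or more libraries.

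The RNA of 3 lines had been sequenced, with 2 libraries per line, labelled as replicates, whereas the methods of the study state a larger number of replicates. Parental ESCs were E14 cells grown without feeder cells on gelatin in medium with 15% serum and LIF. Both derived lines descend from them, share that medium and carry an insertion of HA/FLAG-tagged PRAMEL7 at the *Rosa26* locus on chromosome 6 under the CAG promoter: the intact protein in ESC + H/F-PRAMEL7WT, and a form without its N-terminus in ESC + H/F-PRAMEL7ΔN, for which the labels give a deletion of 50 amino acids and the text of the study a smaller one. The missing part holds the domains through which PRAMEL7 binds the ubiquitin ligase CUL2. Resistant clones had been selected with puromycin, so an effect of the inserted protein and a difference between clones cannot be told apart. Inserted *Pramel7* RNA stood at 51.2 and 46.2 CPM in ESC + H/F-PRAMEL7WT and at 398 and 431 CPM in ESC + H/F-PRAMEL7ΔN, against 0.258 and 0.217 CPM in parental ESCs, so the derived lines also differ in the amount of transgene RNA. CPM is the number of reads of a gene scaled to the reads on all genes, and each library held between 18199680 and 19778149 such reads. Since the libraries are bulk RNA, fewer expressing cells and less RNA per cell cannot be told apart.

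The 8 ESC markers summed to between 5067 and 6113 CPM per library. Of the other cell types looked for, primitive endoderm markers summed to at most 9.67 CPM and the fibroblast markers *Lum* and *Twist2* had 0 reads in every library. The remaining sums came mostly from 1 gene each. *Thy1* made the fibroblast sum 21.1 to 22.4 CPM in ESC + H/F-PRAMEL7WT against 38.8 to 55.6 in the other lines, and *Tfap2c* made the trophectoderm sum 34.2 to 34.8 CPM in ESC + H/F-PRAMEL7ΔN against 62.9 to 99.4 in the other lines. With *Tubb3* as its main part, the neural sum was 279 to 283 CPM in ESC + H/F-PRAMEL7WT, 204 to 213 in parental ESCs and 177 to 201 in ESC + H/F-PRAMEL7ΔN. What these shifts contribute to the imprinted genes was not tested.

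Genomic imprinting leaves only the copy from one parent active. For most genes active from the father's copy, DNA methylation placed in the oocyte marks a control region on the maternal allele and silences that copy. After fertilisation and in ESCs, the zinc-finger protein ZFP57 binds the methylated sequence TGCCGC at such regions and, with TRIM28, holds the methylation in place, while UHRF1 brings DNMT1 to newly copied DNA. *Slc38a4* is an exception in part, since trimethylated H3K27 on the maternal copy also silences it. The reads do not separate the alleles, so a level can stem from either copy.

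Sequences before the annotated starts of *Plagl1*, *Nnat*, *Mest* and *Zdbf2* are shown because these genes had large or opposite differences between the derived lines and differ in how often the ZFP57 motif occurs near their starts. The letters come from RefSeq on GRCm38.p6, on the strand of the gene, 5′ to 3′, and end before any untranslated part. Capitals mark TGCCGC or its reverse complement GCGGCA.
*Plagl1*, chr10:13090582-13090787, plus strand: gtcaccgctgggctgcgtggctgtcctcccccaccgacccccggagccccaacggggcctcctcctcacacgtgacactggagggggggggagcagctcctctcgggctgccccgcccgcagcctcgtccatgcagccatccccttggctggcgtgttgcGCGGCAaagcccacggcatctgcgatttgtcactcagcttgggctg
*Nnat*, chr2:157559828-157560077, plus strand: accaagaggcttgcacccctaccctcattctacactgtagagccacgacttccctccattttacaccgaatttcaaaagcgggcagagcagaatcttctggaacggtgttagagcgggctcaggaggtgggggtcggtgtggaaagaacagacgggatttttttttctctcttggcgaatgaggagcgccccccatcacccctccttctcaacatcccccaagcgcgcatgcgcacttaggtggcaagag
*Mest*, chr6:30737800-30738049, plus strand: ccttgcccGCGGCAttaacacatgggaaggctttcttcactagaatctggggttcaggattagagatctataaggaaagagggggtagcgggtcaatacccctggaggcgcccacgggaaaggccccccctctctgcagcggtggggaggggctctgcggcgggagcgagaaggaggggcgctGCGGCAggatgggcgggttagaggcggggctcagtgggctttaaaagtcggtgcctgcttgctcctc
*Zdbf2*, distal start, chr1:63200108-63200357, plus strand: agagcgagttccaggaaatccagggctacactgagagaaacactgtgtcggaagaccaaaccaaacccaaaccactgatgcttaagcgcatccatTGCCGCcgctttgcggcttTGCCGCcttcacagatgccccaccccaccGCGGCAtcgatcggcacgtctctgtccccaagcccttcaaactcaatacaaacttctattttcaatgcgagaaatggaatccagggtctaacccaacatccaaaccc
*Zdbf2*, proximal start, chr1:63273019-63273264, plus strand: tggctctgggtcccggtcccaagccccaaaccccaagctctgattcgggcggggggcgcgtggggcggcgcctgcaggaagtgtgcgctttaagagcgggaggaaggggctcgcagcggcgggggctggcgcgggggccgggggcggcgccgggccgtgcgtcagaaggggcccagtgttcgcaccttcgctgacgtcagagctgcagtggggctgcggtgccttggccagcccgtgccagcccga
The distal *Zdbf2* window holds the motif 3 times, the *Mest* window shown 2 times and the *Plagl1* window 1 time, and the *Nnat* and proximal *Zdbf2* windows hold none. Another *Mest* window, before a start further upstream at chr6:30733256-30733505, is not shown and holds none. Of 32817 windows of 250 bases before RefSeq starts, 8.68% held the motif on either strand, 0.875% held it at least 2 times and 0.0731% at least 3 times. The members matched 12 windows of 7 genes, 4 of them with the motif, and 2 of these 4 are overlapping windows of *Mest*. CpG sites numbered 13 in the distal and 26 in the proximal *Zdbf2* window, 14 in *Mest*, 12 in *Nnat* and 15 in *Plagl1*, against a median of 6 per full window. *Peg10*, *Sgce* and *Impact* had no entry. The windows cover only the bases next to a start, and a match is not a measured binding site.

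The levels of the 10 genes spanned a wide range. Per kilobase of exon, the level of *Slc38a4* in parental ESCs was 48.8 ± 1.53 CPM (SD over n = 2), that of *Peg10* 42.1 ± 6.91 and that of *Impact* 35.9 ± 0.273. *Mest* with 11.7 ± 2.76 and *Zdbf2* with 9.18 ± 0.781 CPM per kilobase came next and did not differ beyond their spread, and the same held for *Peg3* with 1.14 ± 0.158 and *Nnat* with 1.07 ± 0.201. *Zrsr1* lay between these pairs at 2.28 ± 0.0462. *Sgce* and *Plagl1* were the lowest at 0.336 ± 0.103 and 0.142 ± 0.0241 CPM per kilobase. The order changed between lines at the top. *Impact* led in ESC + H/F-PRAMEL7WT with 56.1 ± 2.67 CPM per kilobase and *Peg10* led in ESC + H/F-PRAMEL7ΔN with 68.6 ± 0.934.

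**Figure D1:**
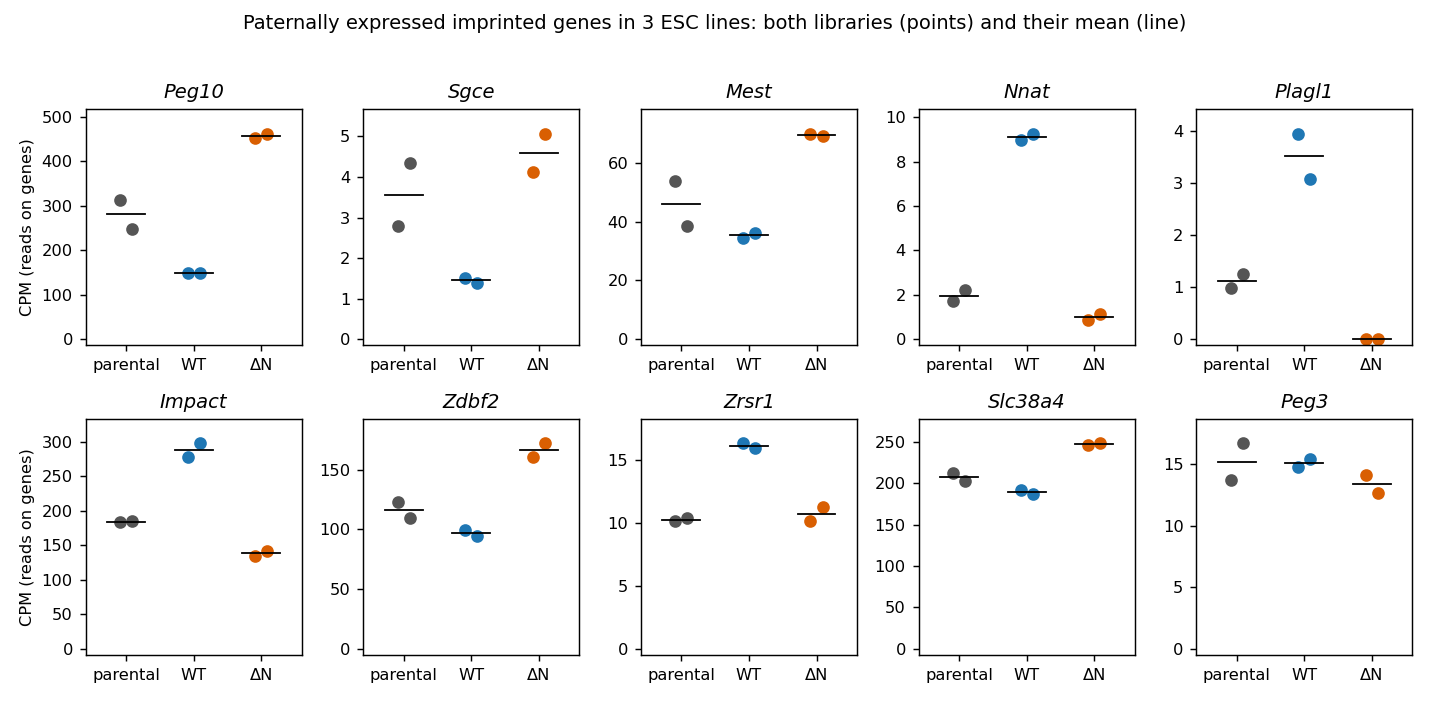
Levels of the 10 paternally expressed imprinted genes, in CPM on a linear axis from 0 that differs per panel, with 1 point per library and a line at the mean of the 2 libraries of parental ESCs, ESC + H/F-PRAMEL7WT (WT) and ESC + H/F-PRAMEL7ΔN (ΔN). *Nnat*, *Plagl1*, *Impact* and *Zrsr1* are highest in WT, whereas *Peg10*, *Sgce*, *Mest*, *Zdbf2* and *Slc38a4* have their highest mean in ΔN, and *Plagl1* had 0 reads there.

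Between the derived lines, 9 of the 10 genes passed the test over all genes (limma, Benjamini-Hochberg adjusted p under 0.05). In ESC + H/F-PRAMEL7WT over ESC + H/F-PRAMEL7ΔN, 4 were higher (*Nnat*, *Plagl1*, *Impact*, *Zrsr1*) and 5 were lower (*Peg10*, *Sgce*, *Mest*, *Zdbf2*, *Slc38a4*), while *Peg3* did not pass. Of all genes tested, 10.9% were higher and 9.44% were lower in this comparison, 20.4% together. Relative to parental ESCs, ESC + H/F-PRAMEL7WT had 4 members higher and 2 lower, where 8.71% and 16.3% of all genes were called (25.0% in either direction). In ESC + H/F-PRAMEL7ΔN, 3 members were higher and 3 were lower, where 6.25% and 13.6% were called (19.9% in either direction). The median difference of the members was close to that of all genes, at -0.11 against -0.02 on the log2(CPM + 1) scale for ESC + H/F-PRAMEL7WT over ESC + H/F-PRAMEL7ΔN, since members moved both ways. Against parental ESCs it was -0.07 against -0.08 for ESC + H/F-PRAMEL7WT and 0.15 against -0.06 for ESC + H/F-PRAMEL7ΔN. Both derived lines were compared with the same parental libraries, and the members had been chosen with these differences in view, so nothing is read from the counts. Rescaling the libraries by the median of their ratios moved the share of higher among called genes from 34.8% to 54.8% in ESC + H/F-PRAMEL7WT and from 31.4% to 46.8% in ESC + H/F-PRAMEL7ΔN, both over parental ESCs.

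Judged by whether the libraries of 2 lines overlap, more members stood apart. In ESC + H/F-PRAMEL7WT over ESC + H/F-PRAMEL7ΔN the lines did not overlap in any member, with 5 higher and 5 lower, where 33.2% and 35.6% of all genes did not overlap in these directions. Relative to parental ESCs, 4 members were higher and 5 lower without overlap in ESC + H/F-PRAMEL7WT, against 24.3% and 40.0% of all genes, and in ESC + H/F-PRAMEL7ΔN 4 were higher and 3 lower, against 21.6% and 35.4%.

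**Figure D2:**
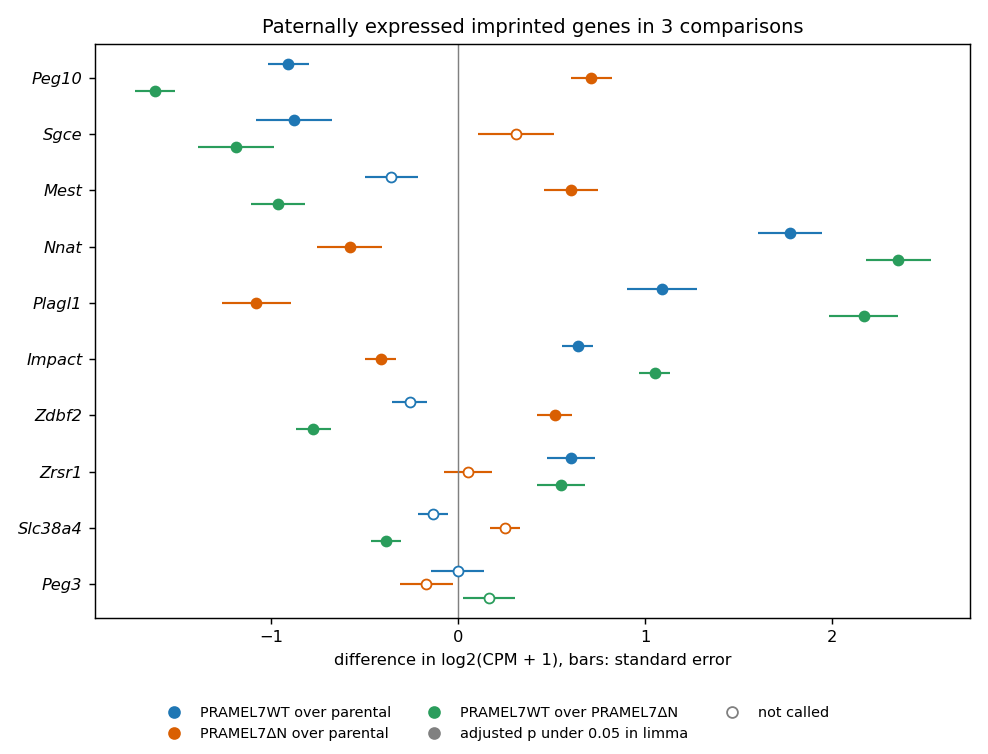
Differences of the 10 genes on the log2(CPM + 1) scale, with bars for the standard error of the limma fit, in ESC + H/F-PRAMEL7WT and ESC + H/F-PRAMEL7ΔN over parental ESCs and in the former over the latter. Filled points passed an adjusted p under 0.05 over all genes, and *Peg10* at -1.62 and *Nnat* at 2.35 mark the ends of the range.

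*Plagl1* and *Nnat* had the largest differences with higher levels in ESC + H/F-PRAMEL7WT. *Plagl1* encodes a zinc-finger transcription factor that restrains proliferation and regulates other imprinted genes. It lies on chromosome 10 from 13060504 to 13131694 (mm10, gene span as in GENCODE vM21, as for all members). Parental ESCs had 0.98 and 1.25 CPM from 19 and 23 reads, ESC + H/F-PRAMEL7WT had 3.95 and 3.08 CPM from 78 and 56 reads, and ESC + H/F-PRAMEL7ΔN had 0 reads in both libraries. The 3 lines did not overlap. ESC + H/F-PRAMEL7WT was 3.16-fold over parental ESCs, with a difference of 1.09 on the log2(CPM + 1) scale (standard error 0.19). ESC + H/F-PRAMEL7ΔN was at least 7.18-fold lower than parental ESCs and at least 22.7-fold lower than ESC + H/F-PRAMEL7WT, with each empty library set to a floor of 3 reads. Of the tested genes around it, *Sf3b5* and *Ltv1* start nearest, with differences of -0.20 and -0.06 in ESC + H/F-PRAMEL7ΔN over parental ESCs that did not pass. *Phactr2*, which starts 414 kb away, had 4.33 and 5.31 CPM in parental ESCs, 4.56 and 3.91 CPM in ESC + H/F-PRAMEL7WT and 2.71 and 3.06 in ESC + H/F-PRAMEL7ΔN, where it fell by 0.58 on the log2 scale (limma, adjusted p = 0.0392). *Utrn*, which starts nearer to *Plagl1* than *Phactr2*, had a difference of -0.45 in ESC + H/F-PRAMEL7ΔN over parental ESCs. In ESC + H/F-PRAMEL7WT over ESC + H/F-PRAMEL7ΔN its difference was 0.52 (standard error 0.10 each), so in both it went in the direction of *Plagl1*. Of the 8 tested genes that start within 1 Mb of *Plagl1*, 0 were higher and 2 were lower in ESC + H/F-PRAMEL7ΔN over parental ESCs, and 1 was higher and 0 were lower in ESC + H/F-PRAMEL7WT over ESC + H/F-PRAMEL7ΔN.

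*Nnat* encodes neuronatin, a small membrane protein of the endoplasmic reticulum known from developing neurons. It lies on chromosome 2 from 157560078 to 157562522, inside an intron of *Blcap*, which runs on the opposite strand. Its level was 1.70 and 2.22 CPM in parental ESCs, 8.96 and 9.25 CPM in ESC + H/F-PRAMEL7WT and 0.853 and 1.11 CPM in ESC + H/F-PRAMEL7ΔN. Every library of ESC + H/F-PRAMEL7WT lay above all others and those of ESC + H/F-PRAMEL7ΔN lay below all others. The ratio of means was 4.64-fold over parental ESCs and 9.28-fold over ESC + H/F-PRAMEL7ΔN. On the log2 scale ESC + H/F-PRAMEL7WT exceeded parental ESCs by 1.78 and ESC + H/F-PRAMEL7ΔN by 2.35 (standard error 0.17 each). The lower level in ESC + H/F-PRAMEL7ΔN than in parental ESCs rests on 17 and 21 reads against 33 and 41, and its call was lost under 11 of 14 alternative settings. *Blcap* has no exon in this stretch in GENCODE vM21, but the libraries are not stranded, so reads of its intron cannot be told from those of *Nnat*. It had 32.2 and 29.4 CPM in parental ESCs, 28.7 and 26.8 CPM in ESC + H/F-PRAMEL7WT and 28.0 and 28.7 in ESC + H/F-PRAMEL7ΔN, and no comparison passed. The summed neural markers moved in the same order as *Nnat*, an order set by *Tubb3*. *Nes* was instead lowest in ESC + H/F-PRAMEL7WT, with 14.0 CPM in both libraries against 15.5 and 17.5 in parental ESCs and 15.2 and 14.9 in ESC + H/F-PRAMEL7ΔN. *Pax6*, *Sox1* and *Neurod1* stayed at or below 1.85 CPM in every library, with *Sox1* highest in ESC + H/F-PRAMEL7WT.

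*Impact* and *Zrsr1* were also highest in ESC + H/F-PRAMEL7WT. *Impact* encodes a regulator of translation that counteracts the stress kinase GCN2, and lies on chromosome 18 from 12955852 to 12992950. It stood at 183 and 185 CPM in parental ESCs, at 278 and 298 CPM in ESC + H/F-PRAMEL7WT and at 134 and 142 CPM in ESC + H/F-PRAMEL7ΔN, so the 3 lines did not overlap. The ratio of means was 1.56-fold for ESC + H/F-PRAMEL7WT over parental ESCs, and 0.750-fold when ESC + H/F-PRAMEL7ΔN was set against them. Between the derived lines it was 2.08-fold. The last ratio corresponds to 1.05 on the log2 scale (standard error 0.08). Among the 7 tested genes around *Impact* the median difference between the derived lines was 0.40 in the same direction, and 2 of them were higher. Against parental ESCs 3 of these 7 were lower in ESC + H/F-PRAMEL7ΔN, as *Impact* was, and 3 were lower in ESC + H/F-PRAMEL7WT, where *Impact* was higher.

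*Zrsr1* is a retrogene of the X-linked splicing factor gene *Zrsr2*. It lies on chromosome 11 from 22972005 to 22976496, within *Commd1* on the opposite strand, and without strand their overlapping reads cannot be told apart. Parental ESCs had 10.1 and 10.4 CPM, ESC + H/F-PRAMEL7WT had 16.3 and 15.9, and ESC + H/F-PRAMEL7ΔN had 10.1 and 11.3. The libraries of ESC + H/F-PRAMEL7WT lay above the 4 others, which overlapped, with 1.57-fold over parental ESCs and 1.51-fold over ESC + H/F-PRAMEL7ΔN. The host gene went the other way. *Commd1* fell by 0.33 on the log2 scale in ESC + H/F-PRAMEL7WT (adjusted p = 0.0420) and by 0.37 in ESC + H/F-PRAMEL7ΔN (adjusted p = 0.0318, both from limma) relative to parental ESCs. *Zrsr2*, which can share reads with its copy, had 41.6 and 42.6 CPM in parental ESCs, 35.3 and 36.1 CPM in ESC + H/F-PRAMEL7WT and 35.9 and 45.3 in ESC + H/F-PRAMEL7ΔN, and did not pass in any comparison. Many genes of chromosome 11 were lower in both derived lines than in parental ESCs. Over its 1101 tested genes the median was -0.36 on the log2 scale in ESC + H/F-PRAMEL7WT, with 45.9% called lower and 3.27% higher, and -0.33 in ESC + H/F-PRAMEL7ΔN, with 39.3% called lower and 2.45% higher. Of the 16 tested genes around *Zrsr1*, 10 were lower in the former and 5 in the latter, and 0 were higher in either. What this contributes to *Zrsr1* was not tested.

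The genes of chromosome 6, *Peg10*, *Sgce* and *Mest*, were lowest in ESC + H/F-PRAMEL7WT and had their highest mean in ESC + H/F-PRAMEL7ΔN. *Peg10* is derived from a retrotransposon and is required for the placenta. It lies from 4747306 to 4760517 on the plus strand and starts 98 bases away from *Sgce*, which encodes ε-sarcoglycan and runs in the opposite direction from 4747207 to 4674350. Parental ESCs had 313 and 248 CPM of *Peg10*, ESC + H/F-PRAMEL7WT had 148 in both libraries and ESC + H/F-PRAMEL7ΔN had 453 and 462. No lines overlapped. The mean in ESC + H/F-PRAMEL7ΔN was 1.63-fold that of parental ESCs and 3.08-fold that of ESC + H/F-PRAMEL7WT. For ESC + H/F-PRAMEL7WT over ESC + H/F-PRAMEL7ΔN the difference was -1.62 on the log2 scale (standard error 0.11).

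*Sgce* was far lower than *Peg10* per kilobase of exon. Its libraries held 2.79 and 4.34 CPM in parental ESCs, 1.52 and 1.38 CPM in ESC + H/F-PRAMEL7WT and 4.12 and 5.07 CPM in ESC + H/F-PRAMEL7ΔN, from 25 to 96 reads. The libraries of ESC + H/F-PRAMEL7WT lay below the 4 others, while parental ESCs and ESC + H/F-PRAMEL7ΔN overlapped. The mean in ESC + H/F-PRAMEL7ΔN was 3.17-fold that in ESC + H/F-PRAMEL7WT. The log2 difference between these lines was -1.19 (standard error 0.20).

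*Mest* encodes a protein of the α/β-hydrolase fold and is expressed in the mesoderm of the embryo. It lies from 30723547 to 30748465 and overlaps the end of *Copg2* by 912 bases, where unstranded reads cannot be told apart. Its level was 53.8 and 38.4 CPM in parental ESCs, 34.5 and 36.1 CPM in ESC + H/F-PRAMEL7WT and 70.0 and 69.3 CPM in ESC + H/F-PRAMEL7ΔN. The libraries of the 3 lines did not overlap, but the parental libraries lay far apart, and the difference of -0.36 (standard error 0.14) between ESC + H/F-PRAMEL7WT and parental ESCs did not pass. ESC + H/F-PRAMEL7ΔN was 1.51-fold over parental ESCs, and ESC + H/F-PRAMEL7WT was lower than ESC + H/F-PRAMEL7ΔN by 0.96 on the log2 scale, with a standard error of 0.14. *Copg2*, a maternally expressed gene in some tissues, had 133 and 113 CPM in parental ESCs, 109 and 99.0 CPM in ESC + H/F-PRAMEL7WT and 168 and 172 in ESC + H/F-PRAMEL7ΔN. It rose by 0.47 in ESC + H/F-PRAMEL7ΔN over parental ESCs (adjusted p = 0.0111) and was lower in ESC + H/F-PRAMEL7WT than in ESC + H/F-PRAMEL7ΔN (log2 difference -0.70, adjusted p = 0.00158, both from limma), in the same direction as *Mest*.

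Many other genes of chromosome 6 differed in the same direction. Over its 600 tested genes the median was -0.25 for ESC + H/F-PRAMEL7WT over parental ESCs, 0.25 for ESC + H/F-PRAMEL7ΔN over parental ESCs and -0.39 for ESC + H/F-PRAMEL7WT over ESC + H/F-PRAMEL7ΔN, all on the log2(CPM + 1) scale. The genes called were 3.67% higher and 31.2% lower in the first comparison and 30.5% higher and 17.2% lower in the second. In the last comparison 5.17% were higher and 47% were lower. The 7 tested genes within 1 Mb of *Peg10* and *Sgce* had medians of -0.33, 0.25 and -0.63, and 6 of them were lower in the last comparison. For the 13 genes around *Mest* the medians were -0.23, 0.32 and -0.41, and 8 were lower. The differences of -1.62 for *Peg10* and -1.19 for *Sgce* lay outside the range of their 7 neighbours, which ran from -0.70 to -0.39. *Mest* at -0.96 lay level with the lowest of its own neighbours, which ran from -0.96 to 0.27. *Casd1*, next to *Sgce*, did not pass in any comparison and stood between 2.77 and 6.65 CPM. On the other side of *Peg10*, *Ppp1r9a* had a difference of -0.58 between the derived lines (limma, adjusted p = 0.0141). What the level of the whole chromosome contributes to these 3 members was not tested.

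**Figure D3:**
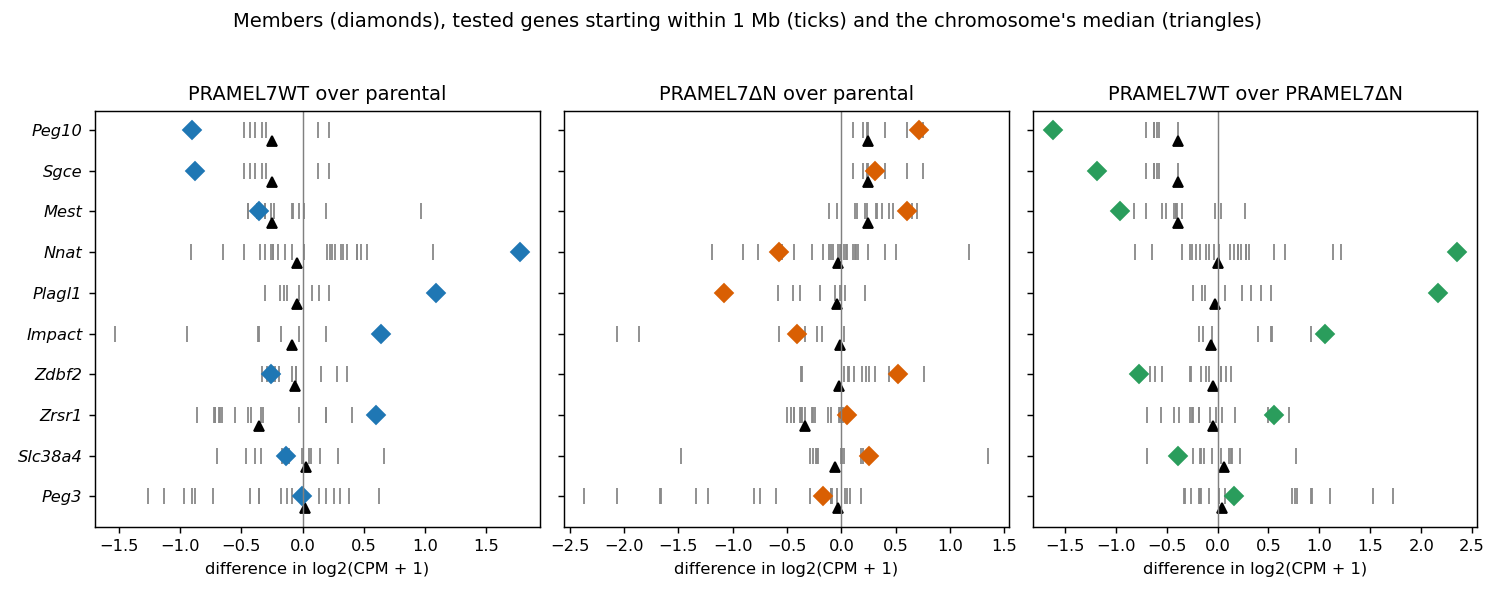
Differences on the log2(CPM + 1) scale in the 3 comparisons for each of the 10 genes (diamonds), the tested genes that start within 1 Mb of it (ticks, other members left out) and the median of its chromosome (triangles). *Peg10*, *Sgce*, *Nnat*, *Plagl1*, *Impact* and *Zdbf2* lie outside their neighbours when ESC + H/F-PRAMEL7WT is set against ESC + H/F-PRAMEL7ΔN, and the triangles of *Peg10*, *Sgce* and *Mest* are shifted to -0.39.

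*Zdbf2* and *Slc38a4* had the same order as the genes of chromosome 6 but lie on chromosomes whose medians differed from that of all genes by at most 0.11 on the log2 scale. *Zdbf2*, on chromosome 1 from 63273265 to 63314576, is activated in the early embryo by a long transcript from a distal start in *Gpr1* and affects growth after birth. Parental ESCs had 123 and 109 CPM, ESC + H/F-PRAMEL7WT had 99.4 and 94.5 and ESC + H/F-PRAMEL7ΔN had 161 and 172, without overlap. ESC + H/F-PRAMEL7ΔN was 1.43-fold over parental ESCs and 1.72-fold over ESC + H/F-PRAMEL7WT, and the log2 difference of ESC + H/F-PRAMEL7WT from ESC + H/F-PRAMEL7ΔN was -0.77 (standard error 0.09). The difference between ESC + H/F-PRAMEL7WT and parental ESCs was -0.26 and did not pass. *Platr12*, annotated at the distal start and looked up after the values of *Zdbf2* had been seen, had 3.97 and 3.31 CPM in parental ESCs, 2.48 and 3.41 CPM in ESC + H/F-PRAMEL7WT and 4.97 and 4.49 in ESC + H/F-PRAMEL7ΔN, and did not pass in any comparison. *Adam23*, the next protein-coding gene downstream, stood between 245 and 272 CPM and did not pass either. *Gpr1* had at most 12 reads in any library and was not tested.

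*Slc38a4* encodes an amino acid transporter needed for placental growth. It lies on chromosome 15 from 96994820 to 97055956 on the minus strand. Its level was 212 and 203 CPM in parental ESCs, 192 and 187 CPM in ESC + H/F-PRAMEL7WT and 247 and 248 CPM in ESC + H/F-PRAMEL7ΔN. The lines did not overlap, but the steps were small, at 0.912-fold and 1.19-fold relative to parental ESCs, and neither passed. Between the derived lines the log2 difference was -0.38 (standard error 0.08), which passed. The related transporter gene *Slc38a2*, next to it, fell by 0.34 in ESC + H/F-PRAMEL7WT (adjusted p = 0.0135) and by 0.29 in ESC + H/F-PRAMEL7ΔN (adjusted p = 0.0285, both from limma) and did not pass between the derived lines (log2 difference -0.05, standard error 0.08).

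*Peg3*, which encodes a zinc-finger protein known for effects on growth and maternal behaviour, was the member that passed in no comparison. It lies on chromosome 7 from 6703892 to 6730431 on the minus strand. Parental ESCs had 13.7 and 16.7 CPM, ESC + H/F-PRAMEL7WT had 14.8 and 15.5 and ESC + H/F-PRAMEL7ΔN had 14.1 and 12.7. Parental libraries overlapped with both derived lines. The log2 differences were -0.17 for ESC + H/F-PRAMEL7ΔN over parental ESCs and 0.17 for ESC + H/F-PRAMEL7WT over ESC + H/F-PRAMEL7ΔN, with a standard error of 0.14 each. Its divergent partner *Usp29*, which starts within 146 bases and is also paternally expressed, had 1.75 and 1.19 CPM in parental ESCs, 0.405 and 0.551 CPM in ESC + H/F-PRAMEL7WT and 0.351 and 0.581 in ESC + H/F-PRAMEL7ΔN. *Usp29* was lower by 0.74 in ESC + H/F-PRAMEL7WT and by 0.75 in ESC + H/F-PRAMEL7ΔN, from 34 and 22 reads in parental ESCs to between 7 and 11. By ratio of means it was 3.08-fold and 3.16-fold lower. It exceeded 1 CPM only in parental ESCs and entered the test through them. Its calls, which are part of the counts given here, are therefore a description. Among the 18 tested genes around *Peg3*, 1 was higher and 6 were lower in ESC + H/F-PRAMEL7WT, and 0 were higher and 8 were lower in ESC + H/F-PRAMEL7ΔN, both over parental ESCs. Between the derived lines 8 of them were higher and 0 were lower in ESC + H/F-PRAMEL7WT. Of the 13 genes listed as overlapping or lying near a member, the parent gene *Zrsr2* included, 10 were tested. Relative to parental ESCs, 0 were higher and 3 were lower with PRAMEL7WT, 1 was higher and 4 were lower with PRAMEL7ΔN, and 2 were lower between the derived lines. Beside these counts stand 25.0%, 19.9% and 20.4% of all genes called in either direction.

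Of 21 paternally expressed genes outside the set, 12 were tested and the others had at most 26 reads in any library. Relative to parental ESCs, 1 was higher and 2 were lower in ESC + H/F-PRAMEL7WT, where 25.0% of all genes were called, and 0 were higher and 4 were lower in ESC + H/F-PRAMEL7ΔN, where 19.9% were called. Between the derived lines 1 was higher and 0 were lower in ESC + H/F-PRAMEL7WT, beside 20.4% of all genes. *Sfmbt2*, a Polycomb-related gene whose maternal copy is also silenced through H3K27 methylation, was called in every comparison. It had 15.9 and 14.1 CPM in parental ESCs, 30.8 and 27.6 CPM in ESC + H/F-PRAMEL7WT and 7.63 and 6.49 in ESC + H/F-PRAMEL7ΔN, the order of *Nnat* and *Plagl1*. It rose by 0.92 in ESC + H/F-PRAMEL7WT (adjusted p = 0.00252), fell by 0.99 in ESC + H/F-PRAMEL7ΔN (adjusted p = 0.00155) and differed by 1.91 between them (adjusted p = 3.59e-05, all from limma). *Snrpn*, a spliceosome component of the Prader-Willi region, fell by 0.50 in ESC + H/F-PRAMEL7ΔN (adjusted p = 0.0418), and *Inpp5f*, a phosphatase gene, fell by 0.39 in ESC + H/F-PRAMEL7WT (adjusted p = 0.0325). The other calls were *Peg12*, a gene of the Prader-Willi region, and, in both derived lines, *Usp29*, which entered the test only through parental ESCs. *Peg12* fell by 0.93 in ESC + H/F-PRAMEL7ΔN from 2.22 and 1.68 CPM to 0.552 and 0.528 (limma, adjusted p = 0.00885). By ratio of means *Peg12* was 3.61-fold lower there. *Ndn*, *Dlk1*, *Rtl1* and *Kcnq1ot1* did not pass in any comparison. The median difference between the derived lines was 0.10 over these 12 genes, against -0.02 over all genes. Like the members, this list was drawn up with results known.

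Among 24 maternally expressed imprinted genes, 14 were tested. In ESC + H/F-PRAMEL7WT over parental ESCs, 0 were higher and 4 were lower, in ESC + H/F-PRAMEL7ΔN 1 was higher and 1 was lower, and between the derived lines 0 were higher and 3 were lower. The shares of all genes called in either direction were 25.0%, 19.9% and 20.4% in the same order. *Grb10*, which encodes an adaptor that restrains growth factor signalling, had 679 and 532 CPM in parental ESCs, 29.7 and 28.7 CPM in ESC + H/F-PRAMEL7WT and 621 and 627 in ESC + H/F-PRAMEL7ΔN. This difference of -4.32 on the log2 scale (limma, adjusted p = 5.28e-08) exceeded that of any member. *Igf2r*, the receptor that clears the growth factor IGF2, fell by 0.62 in ESC + H/F-PRAMEL7WT (adjusted p = 0.0103) and by 0.76 in ESC + H/F-PRAMEL7ΔN (adjusted p = 0.00429). *Ube3a*, a ubiquitin ligase, fell by 0.54 in ESC + H/F-PRAMEL7WT (adjusted p = 0.0294). *Meg3* and *Mirg* of the *Dlk1* cluster did not pass. *Rian*, of the same cluster, made up the count in ESC + H/F-PRAMEL7WT with a fall by 0.33 (adjusted p = 0.0288, all from limma). No test of the lists was made.

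**Figure D4:**
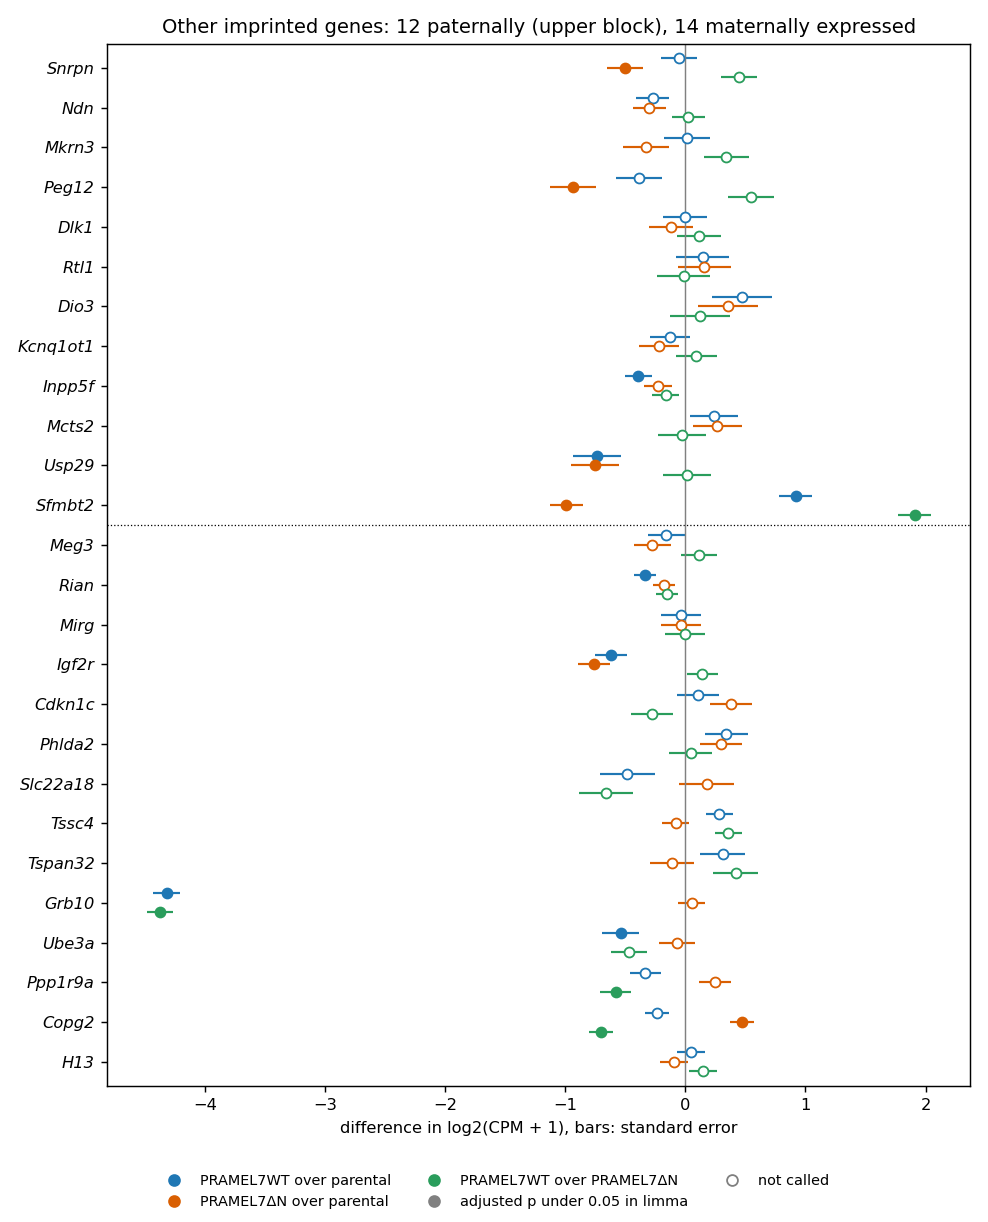
Differences of 12 other paternally expressed genes (above the dotted line) and 14 maternally expressed genes (below it) on the log2(CPM + 1) scale, with bars for the standard error, in the 3 comparisons. *Sfmbt2* changes in opposite directions in both derived lines, and *Grb10* is lower by more than 4 on the log2 scale in ESC + H/F-PRAMEL7WT than in each of the other lines.

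Factors that place, copy or protect the imprint marks were read from the same fit. All 21 genes of this list were tested. Relative to parental ESCs, 2 were higher and 5 were lower in ESC + H/F-PRAMEL7WT, and 4 were higher and 4 were lower in ESC + H/F-PRAMEL7ΔN, while 3 were higher and 6 were lower in ESC + H/F-PRAMEL7WT over ESC + H/F-PRAMEL7ΔN. Over all genes tested, 25.0%, 19.9% and 20.4% were called in either direction in these comparisons. This list, too, was drawn up with results known, so nothing is read from the counts. *Uhrf1* RNA rose in both derived lines by 0.37 on the log2 scale (adjusted p = 0.0115 and 0.0118), from 531 and 573 CPM to between 709 and 721 CPM. The values are RNA levels and say nothing of the UHRF1 protein. *Dnmt1*, *Trim28*, *Setdb1*, *Ctcf* and *Smchd1* did not pass in any comparison. *Zfp57* had 251 and 221 CPM in parental ESCs, 224 and 233 CPM in ESC + H/F-PRAMEL7WT and 310 and 306 in ESC + H/F-PRAMEL7ΔN, where it rose by 0.38 (adjusted p = 0.0151).

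Of the genes for enzymes that set and remove DNA methylation, *Dnmt3a*, *Dnmt3b*, *Tet1*, *Tet2* and *Tet3* differed between the derived lines, whereas *Dnmt1* did not. *Dnmt3l*, of the same list, did not pass in any comparison. The changes given next are relative to parental ESCs. The de novo methyltransferase gene *Dnmt3b* rose by 0.89 in ESC + H/F-PRAMEL7WT (adjusted p = 0.00115), and *Dnmt3a* fell by 1.48 in ESC + H/F-PRAMEL7ΔN (adjusted p = 1.92e-05). *Tet1* and *Tet2*, which encode enzymes that oxidise 5-methylcytosine, fell by 0.48 and 0.42 in ESC + H/F-PRAMEL7WT (adjusted p = 0.00683 and 0.0421), and *Tet2* rose by 0.58 in ESC + H/F-PRAMEL7ΔN (adjusted p = 0.0132). *Cbx5*, which encodes the heterochromatin protein HP1α, rose by 0.57 in ESC + H/F-PRAMEL7ΔN (adjusted p = 0.0111), whereas *Kdm1b*, a histone demethylase gene that oocytes need to set imprints, fell by 0.50 there (adjusted p = 0.0188, all from limma). *Arid4b*, a chromatin gene linked to imprinting, fell by 0.54 in ESC + H/F-PRAMEL7WT (limma, adjusted p = 0.0439). *Dppa3*, whose protein shields maternal methylation in the zygote, had 9.50 and 14.0 CPM in parental ESCs, 1.92 and 1.87 CPM in ESC + H/F-PRAMEL7WT and 1.00 and 0.95 in ESC + H/F-PRAMEL7ΔN. It fell by 2.12 and 2.67 (limma, adjusted p = 0.000527 and 5.02e-05), which by ratio of means was 6.20-fold and 12.0-fold. The remaining calls against parental ESCs were a fall of *Zfp42* in ESC + H/F-PRAMEL7WT by 0.39 (adjusted p = 0.0184) and of *Tet3* in ESC + H/F-PRAMEL7ΔN by 1.11 (adjusted p = 0.00227, both from limma). In ESC + H/F-PRAMEL7WT over ESC + H/F-PRAMEL7ΔN, *Zfp445* differed by -0.39 (adjusted p = 0.0360), *Zfp42* by -0.35 (adjusted p = 0.0299) and *Tet3* by 0.62 (adjusted p = 0.0293, all from limma). DNA methylation at the imprinted regions was not analysed here.

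Single libraries decided some calls of members, while every called difference kept its direction under the alternatives run. With replicate 1 or replicate 2 of ESC + H/F-PRAMEL7WT left out, *Sgce* and *Zrsr1* were no longer called against parental ESCs, and *Plagl1* lost its call without replicate 1 of that line, with a difference of 0.95. The parental libraries moved *Sgce* in this comparison between -1.13 and -0.63. Without replicate 2 of parental ESCs, which lay below replicate 1 in *Peg10*, *Mest* and *Zdbf2*, *Mest* at -0.59 and *Zdbf2* at -0.34 were called lower in ESC + H/F-PRAMEL7WT. Without replicate 1 of parental ESCs, *Slc38a4* was called higher in ESC + H/F-PRAMEL7ΔN, with 0.28. With replicate 1 or replicate 2 of ESC + H/F-PRAMEL7ΔN left out, *Mest* was no longer called higher in that line, and with parental libraries left out its difference ran from 0.37 to 0.84. *Zdbf2* lost that call without replicate 2, and *Impact* lost its lower call without replicate 1 at -0.37. Between the derived lines, *Zrsr1* (0.48 to 0.62) and *Slc38a4* (-0.40 to -0.37) lost their calls when any of the 4 libraries of these lines was left out, and *Sgce* lost its call without replicate 2 of ESC + H/F-PRAMEL7ΔN, at -1.06. *Peg10* in all comparisons, *Nnat* and *Impact* in ESC + H/F-PRAMEL7WT and *Plagl1* in ESC + H/F-PRAMEL7ΔN were called under all alternatives that tested them. Between the derived lines the same held for *Nnat*, *Plagl1*, *Impact*, *Mest* and *Zdbf2*.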

How the data were processed

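RNA-seq libraries of 3 ESC lines were analysed, with 2 libraries per line, as the labels assign them. The 6 ChIP and input samples were not analysed here. Polyadenylated RNA had been made into libraries with a kit that does not keep the strand. Before mapping to mm10 with STAR, the authors had used SortMeRNA against ribosomal reads and Trimmomatic on the rest, and they deposited RPKM values per gene from their own exon-coverage pipeline. The submitters' processing notes also name Bowtie2 2.3.4.3 and Subread 1.4.6-p4. The authors' tables of their own comparisons, which hold fold changes, scores and p-values, were not used.

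The RPKM values deposited by the authors were found to be divided by the whole gene span of GENCODE vM21. Multiplied by that span, 98.3% to 98.5% of the values up to 20 reads lay within 0.1 of whole reads, against 43.8% to 45.9% with exon length. They were converted to CPM with 1 constant, which keeps the authors' scaling between libraries. Of 50978 rows, 176 with repeated or date-like names, 2796 without a match and 66 with several matches were left out, which left 47940. Genes that exceeded 1 CPM in 2 or more libraries entered the test, made on log2(CPM + 1) with limma 3.58.1 in R 4.3.3 (mean-variance trend, 3 lines in a single fit, Benjamini-Hochberg adjustment). A fold change on this scale understates that of low genes, so ratios of mean CPM are also given for the called members and for *Usp29*, *Peg12* and *Dppa3*. With 2 libraries per line, p-values measure the spread between the libraries of a line. As alternatives, each library was left out in turn, the pseudocount was set to 0.1 or 5, the filter was dropped or raised to 10 CPM, and the fit was run with a replicate block, with only the lines compared, with median-ratio scaling, with no trend, with voom on whole reads, on RPKM without conversion and with a fold limit. The fit was tested on simulated data. Tables and figures used python 3.11.15, pandas 2.3.3, numpy 2.4.6 and matplotlib 3.10.9.

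All members are named. From the lists of other imprinted genes and maintenance factors, up to 3 called genes per comparison and direction with a mean of at least 10 CPM are named by size of change, and listed genes that overlap or lie near a member where tested. *Sf3b5*, *Ltv1*, *Utrn*, *Platr12*, *Peg12*, *Rian*, *Dppa3*, *Tet3*, *Zfp42*, *Zfp445* and genes named as not passing were chosen after their values were seen. The members and lists were chosen with earlier results of these data known.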

Additional observations from a re-analysis of the deposited data

Results flagged for a closer look

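Differences between the derived lines were tested directly, as ESC + H/F-PRAMEL7WT over ESC + H/F-PRAMEL7ΔN on the log2(CPM + 1) scale (limma, adjusted p under 0.05), and are listed because a change against parental ESCs in a single line does not show that the lines differ. Higher in ESC + H/F-PRAMEL7WT were *Nnat* by 2.35, *Plagl1* by 2.17, *Impact* by 1.05 and *Zrsr1* by 0.55 among the members. Lower there were *Peg10* with -1.62, *Sgce* with -1.19, *Mest* with -0.96, *Zdbf2* with -0.77 and *Slc38a4* with -0.38. The members had been chosen with such values known. Of the other imprinted genes, *Sfmbt2* differed by 1.91, *Grb10* by -4.37, *Copg2* by -0.70 and *Ppp1r9a* by -0.58. The maintenance factors *Dnmt3a* and *Dnmt3b* differed by 1.41 and 1.17, *Tet2* by -0.996, *Tet1* by -0.61, *Cbx5* by -0.61 and *Zfp57* by -0.43. Smaller calls among these factors were *Tet3* with 0.62 and *Zfp445* and *Zfp42* with -0.39 and -0.35.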

How the results depend on the processing

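Over the 10 members and 3 comparisons, 443 of 447 values under the alternatives kept their direction and 399 moved by less than their standard error; the 4 that changed sign belong to uncalled differences near 0 in the reported fit, and no called member reversed. Against 1125 genes higher and 2109 lower in ESC + H/F-PRAMEL7WT over parental ESCs, there were 621 and 1275 without a filter, 1752 higher after median-ratio scaling, 227 and 134 with RPKM left unconverted, and 526 and 1086 with a log2 limit of 0.58. Against 807 higher and 1759 lower in ESC + H/F-PRAMEL7ΔN over parental ESCs, there were 497 higher without a filter, 518 higher with only the compared lines in the fit, 1098 lower above 10 CPM, 137 and 134 with RPKM, and 370 and 1086 with the limit. Against 1409 higher and 1219 lower in ESC + H/F-PRAMEL7WT over ESC + H/F-PRAMEL7ΔN, there were 812 and 615 without a filter, 2331 and 2316 with only these lines, 160 and 97 with RPKM, and 856 and 609 with the limit. Of the members above 10 CPM, ESC + H/F-PRAMEL7WT had 2 higher and 1 lower, 1 was lower in ESC + H/F-PRAMEL7ΔN and 2 were higher between the derived lines, since *Nnat*, *Plagl1* and *Sgce* were not tested there. With RPKM the members called were 1 higher and 1 lower, 1 higher and 0 lower, and 1 higher and 1 lower in the same order of comparisons. Without a filter 1 member was lower in ESC + H/F-PRAMEL7WT, and with the limit 1 was lower in ESC + H/F-PRAMEL7ΔN.

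With each library left out in turn, a lone library being assumed to vary like the other lines, the genes called ranged from 216 to 1701 higher and 447 to 2699 lower in ESC + H/F-PRAMEL7WT, from 218 to 1492 and 623 to 2656 in ESC + H/F-PRAMEL7ΔN, and from 378 to 2320 and 308 to 2318 between the derived lines. The members called ranged from 2 to 4 higher and 1 to 4 lower, from 1 to 4 higher and 1 to 3 lower, and from 3 to 4 higher and 3 to 5 lower. The low log2 differences depend on the pseudocount: *Nnat* between the derived lines ran from 1.24 with a pseudocount of 5 to 3.17 with voom on whole reads, which called 1061 and 2090, 833 and 1670, and 1293 and 1252 genes higher and lower in the 3 comparisons. The replicate numbers are not stated to mark a batch, and the differences between replicates correlated across genes by 0.207, -0.249 and -0.103 between lines, so they were not taken as pairs. The replicate block gave 955 and 1774, 652 and 1460, and 1206 and 975 genes higher and lower in the 3 comparisons.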
